A study of Mus musculus with 60 samples.

Results

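Expression of the tumour suppressor p53 and its target genes was followed across a Chd8 mutation and 2 drugs in the prefrontal cortex of young mice. The 10 genes were Trp53, which encodes p53, its inhibitors Mdm2 and Mdm4, and the p53 targets Cdkn1a, Ccng1, Bax, Bbc3, Phlda3, Trp53inp1 and Zmat3. They were listed by name as genes of the p53 pathway, which the chromatin remodeler CHD8 is known to restrain. All 10 had a row among the 18088 genes of the deposited table, all 10 were among the 17807 genes tested, and none was at 0 in any of the 60 libraries. The libraries were made with a stranded messenger RNA kit from C57BL/6J mice on postnatal day 25, in 12 groups of 5. Het mice carried 1 copy of the N2373K allele of Chd8 (Chd8+/N2373K), and WT mice carried none. Males and females of both genotypes received fluoxetine, an antidepressant that blocks serotonin uptake, lithium, which is given in bipolar disorder, or vehicle through their mothers' milk between postnatal days 3 and 24. The sources used here give no doses, vehicle composition or litters. Pups of a group can share a mother, so a p-value measures no more than the spread among these libraries.

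p53 is a transcription factor that is kept scarce by Mdm2, a ubiquitin ligase that marks it for destruction, and is held inactive by Mdm4, a relative of Mdm2. When DNA damage or another stress frees it, p53 binds response elements built from paired half-sites and raises genes that stop the cell cycle, start apoptosis or feed back on p53 itself, Mdm2 among them. In neurons, which do not divide, the pathway is best known from cell death in development and after injury.

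In the GRCm38 annotation the regulators were Trp53 (ENSMUSG00000059552) at chr11:69580359-69591873, Mdm2 (ENSMUSG00000020184) at chr10:117688875-117710758 and Mdm4 (ENSMUSG00000054387) at chr1:132959484-133030561. The targets that act on the cell cycle or on p53 were Cdkn1a (ENSMUSG00000023067) at chr17:29090976-29100727 and Ccng1 (ENSMUSG00000020326) at chr11:40748552-40755311. The apoptosis genes were Bax (ENSMUSG00000003873) at chr7:45461697-45466898 and Bbc3 (ENSMUSG00000002083) at chr7:16308393-16318205, and the others were Phlda3 (ENSMUSG00000041801) at chr1:135766119-135769136, Trp53inp1 (ENSMUSG00000028211) at chr4:11156431-11174379 and Zmat3 (ENSMUSG00000027663) at chr3:32334792-32366014. All 10 are protein-coding, and a value covers the whole gene.

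Promoters are shown for 4 of the genes with a p53 half-site match. They are Cdkn1a and Bax, targets that were higher under lithium, and Trp53 and Mdm2, a pair that varied together. Phlda3, also higher under lithium, and Mdm4 and Bbc3, lower under fluoxetine, had no match in their windows and are not shown. RefSeq windows of build GRCm38.p6, from 250 bases before to 50 bases after an annotated start, were matched by symbol for 8 of the 10 genes, 12 windows in all. They are written 5′ to 3′ on the gene's strand, with matches to the p53 half-site motif in capitals. The windows lie at chr17:29090729-29091028 (plus strand) for Cdkn1a, chr7:45466849-45467148 (minus strand) for Bax, chr11:69580109-69580408 (plus strand) for Trp53 and chr10:117710709-117711008 (minus strand) for Mdm2.
Cdkn1a: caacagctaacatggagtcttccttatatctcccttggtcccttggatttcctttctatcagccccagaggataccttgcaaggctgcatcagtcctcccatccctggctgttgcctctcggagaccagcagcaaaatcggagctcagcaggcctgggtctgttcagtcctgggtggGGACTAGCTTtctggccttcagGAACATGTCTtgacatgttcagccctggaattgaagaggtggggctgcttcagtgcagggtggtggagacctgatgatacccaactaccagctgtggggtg
Bax: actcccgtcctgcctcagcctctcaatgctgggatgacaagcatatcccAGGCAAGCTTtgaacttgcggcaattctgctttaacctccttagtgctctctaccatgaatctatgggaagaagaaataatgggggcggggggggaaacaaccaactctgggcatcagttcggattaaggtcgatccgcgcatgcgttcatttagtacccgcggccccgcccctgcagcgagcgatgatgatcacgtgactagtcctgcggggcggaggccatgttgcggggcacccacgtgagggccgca
Trp53: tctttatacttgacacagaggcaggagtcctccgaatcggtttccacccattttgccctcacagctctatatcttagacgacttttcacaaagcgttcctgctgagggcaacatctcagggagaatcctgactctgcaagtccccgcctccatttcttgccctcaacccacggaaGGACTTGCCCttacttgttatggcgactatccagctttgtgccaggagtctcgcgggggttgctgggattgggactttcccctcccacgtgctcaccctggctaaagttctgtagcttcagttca
Mdm2: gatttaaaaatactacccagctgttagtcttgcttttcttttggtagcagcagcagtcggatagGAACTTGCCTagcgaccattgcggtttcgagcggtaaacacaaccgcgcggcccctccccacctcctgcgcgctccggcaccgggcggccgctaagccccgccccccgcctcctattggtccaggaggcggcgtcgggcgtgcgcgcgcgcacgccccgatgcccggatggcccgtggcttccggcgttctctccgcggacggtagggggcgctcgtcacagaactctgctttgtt

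A half-site match lay in 5 of the 12 windows (41.7%), those of Trp53, Mdm2, Ccng1, Bax and 1 of the 2 Cdkn1a windows, against 8.36% of all 32851 RefSeq promoter windows of that length. The motif reads the same on both strands, and overlapping matches were counted. The upstream of the 2 Cdkn1a windows, the one shown, held 2 matches. They were GGACTAGCTT beginning 73 bases before the start of that window's transcript and GAACATGTCT beginning 51 bases before it. The letters directly after GAACATGTCT, tgacatgttc, also contain CATG but miss the motif at their first base, so they are not marked. Only the match nearer the start contains CATG, the centre of the classical element. Single matches began 201 bases before the start in Bax (AGGCAAGCTT), 186 in Mdm2 (GAACTTGCCT), 185 in Ccng1 (GGGCAAGCCT) and 75 in Trp53 (GGACTTGCCC). The windows of Mdm4, Bbc3 and Phlda3 held none, and Zmat3 and Trp53inp1 had no entry. The letters CATG alone, on both strands, were in 3 of the 12 windows (25%) and in 61.1% of all windows. A match describes letters and shows no binding.

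Reads recovered from the deposited values came to 24052509 to 31647416 per library over the genes of the table. Chd8, the mutated gene, averaged 2671 ± 134 normalized counts in Het libraries and 3094 ± 91.7 in WT libraries (SD, n = 30 each), a log2 difference of -0.21 with an adjusted p of 1.13e-13 in limma. Cortical neuron markers were all present. Summed olfactory bulb and neuroblast markers ran from 14231 to 54897 and summed myelin markers from 36810 to 240234 over libraries, with no marker of either list below a mean of 10. Summed choroid plexus markers ran from 6554 to 28663 and summed striatal markers from 4362 to 23735. No alternative analysis adjusted for choroid plexus or striatal markers. Where a call of the 10 genes over both sexes ended without the 16 libraries that scored highest for olfactory bulb, or with the olfactory bulb and myelin scores as covariates, that value stands beside it. Those 16 included 3 Het females and 2 Het males given fluoxetine but 0 WT females and 0 WT males given it. Under fluoxetine the olfactory bulb score averaged 0.19 ± 1.17 in Het and -0.54 ± 0.42 in WT mice (log2, SD, n = 10 each). The part of this imbalance in the differences between genotypes was not tested further.

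Values are the deposited normalized counts, reads divided by a size factor per library, and are compared between genes only per kilobase of exon. That scale takes all annotated exons of a gene together, whichever transcripts are expressed, and the order of the genes depends on it. On that scale Ccng1, encoding cyclin G1, was highest with 532 ± 42.5 (SD, n = 60), and Bax, the pore-forming protein of mitochondrial apoptosis, followed with 496 ± 31.1. Zmat3, a zinc-finger RNA-binding protein, had 374 ± 38.6, and Cdkn1a, the cyclin-dependent kinase inhibitor p21, had 329.9 ± 82.4. Mdm2 had 266 ± 17.9, Phlda3, an inhibitor of Akt, had 243 ± 28.2, and Mdm4 had 198 ± 16.5. Lowest were Trp53inp1, a stress-induced nuclear protein, with 114 ± 17.3, Trp53 with 109.7 ± 9.75 and Bbc3, the BH3-only protein Puma, with 75.3 ± 15.7. Bax exceeded Zmat3, and Mdm4 exceeded Trp53inp1, in 60 of 60 libraries. Trp53inp1 exceeded Trp53 in only 34 of 60, so these neighbours did not differ beyond their spread. The longest overlap of a pair of exons was 261 bases for Cdkn1a with AC167363.2 on the opposite strand. It was 140 bases for Bax with Gm45808 on the same strand. Neither partner has a row in the table. Reads in the bases that Bax and Gm45808 share cannot be assigned, and for Cdkn1a the strand setting of the counting is not given.

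The genes differed in how far libraries of a group scattered. The median coefficient of variation within groups of 5 was 18.5% for Cdkn1a, 16.3% for Bbc3, 14.3% for Trp53inp1 and 11% for Phlda3. It was 4.78% for Bax, 6% for Mdm2 and 6.28% for Mdm4, where smaller differences could be detected.

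Het and WT mice were compared to see whether the Chd8 mutation moved the p53 pathway. Over all treatments and both sexes Zmat3 fell in Het mice, and none of the other 9 genes passed the threshold of an adjusted p under 0.05. Zmat3 averaged 4067 ± 441 in Het libraries and 4490 ± 331 in WT libraries (SD, n = 30 each). The log2 difference was -0.15, with a 95% interval of -0.21 to -0.09 and an adjusted p of 0.0028 in limma over all genes, and 23 of 30 Het libraries lay below the WT mean. This 1 of 10 genes stands against 1.54% of all genes tested. In whole tissue, fewer cells of a type and less RNA per cell cannot be told apart.

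Under fluoxetine, Zmat3 had 4090, 4510, 3283, 3671 and 3304 in Het males and 3424, 3422, 3741, 4057 and 3590 in Het females, against 4879, 4584, 4330, 4619 and 4630 in WT males and 4437, 4404, 3651, 4475 and 3697 in WT females. Under lithium, Zmat3 had 4219, 3725, 4555, 4555 and 4723 in Het males and 4542, 4833, 4292, 4376 and 4187 in Het females, against 4603, 4828, 4320, 4719 and 4322 in WT males and 4941, 4726, 4129, 5066 and 4533 in WT females. Under vehicle, Zmat3 had 3737, 4305, 3733, 4085 and 4550 in Het males and 4249, 4213, 4272, 3550 and 4223 in Het females, against 4413, 4247, 4721, 4818 and 4779 in WT males and 4134, 4168, 4646, 4243 and 4653 in WT females. Het and WT libraries overlapped under every treatment, and the lowest 4 of the 60 values came from Het mice given fluoxetine. The log2 difference between Het and WT mice was -0.24 (adjusted p = 0.0037) under fluoxetine, -0.07 (adjusted p = 0.8353) under lithium and -0.13 (adjusted p = 0.5325) under vehicle in limma. In males given fluoxetine it was -0.30 (adjusted p = 0.0221), and that call was lost without Het replicate 3 or 5 or without WT replicate 1 or 4, and with only the groups compared. The interaction of genotype and fluoxetine was -0.10, with a 95% interval of -0.25 to 0.04 and an adjusted p of 0.4045, so a difference between treatments was not shown. The value over all treatments was -0.15 (adjusted p = 0.0220) without the 16 libraries that scored highest for olfactory bulb and -0.14 (adjusted p = 0.0020) with the olfactory bulb and myelin scores as covariates. Under fluoxetine it was -0.22 (adjusted p = 0.0699) without those libraries and -0.24 (adjusted p = 0.0632) with only the groups compared.

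Cdkn1a, whose product p21 halts the cell cycle, had the largest positive difference between genotypes among the 10 genes over all treatments, and it missed the threshold. Under fluoxetine, Cdkn1a had 1077, 1074, 1345, 1350 and 1573 in Het males and 1334, 2303, 1315, 1243 and 1066 in Het females, against 1087, 1088, 978, 882 and 1096 in WT males and 1044, 981, 989, 1104 and 1217 in WT females. Under lithium, Cdkn1a had 1355, 1303, 1138, 1541 and 1610 in Het males and 885, 1458, 841, 1287 and 1536 in Het females, against 1211, 1253, 1474, 1169 and 1465 in WT males and 1167, 1462, 1946, 1162 and 1013 in WT females. Under vehicle, Cdkn1a had 1562, 1147, 838, 889 and 1005 in Het males and 977, 1080, 1117, 1251 and 1199 in Het females, against 724, 1165, 739, 841 and 867 in WT males and 719.9, 784, 786, 1185 and 1031 in WT females. The ranges of Het and WT mice overlapped under all 3 treatments, and 1 Het female given fluoxetine stood far above the rest. The log2 difference between Het and WT mice over all treatments was 0.21, with a 95% interval of 0.07 to 0.35 and an adjusted p of 0.1134 in limma. Under fluoxetine it was 0.35 (adjusted p = 0.0597), with 10 of 10 Het libraries above the WT mean, and it passed in edgeR, at 0.38 (adjusted p = 0.0476), and in DESeq2, at 0.38 (adjusted p = 0.0284). Without the 16 libraries that scored highest for olfactory bulb it was 0.20 (adjusted p = 0.2953) in limma. Under vehicle it was 0.33 (adjusted p = 0.5240), with 9 of 10 Het libraries above the WT mean, and under lithium it was -0.05 (adjusted p = 0.9672).

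Bax passed between genotypes under fluoxetine, where it fell in Het mice. Under fluoxetine, Bax had 805, 746, 742, 827 and 643 in Het males and 762, 852, 639, 788 and 690.2 in Het females, against 803, 822, 783, 782 and 769.7 in WT males and 812, 879.7, 804, 796 and 868 in WT females. The ranges overlapped, the 3 lowest values were Het, and 8 of 10 Het libraries lay below the WT mean. The log2 difference was -0.12, with a 95% interval of -0.20 to -0.04 and an adjusted p of 0.0483 in limma, close to the threshold. The call was kept in 24 of 60 fits that each left out 1 library, and the value was -0.10 (adjusted p = 0.1072) with the olfactory bulb and myelin scores as covariates and -0.09 (adjusted p = 0.2159) without the 16 libraries that scored highest for olfactory bulb. The call was also lost with only the groups compared, at -0.12 (adjusted p = 0.2133), with the glucocorticoid score as a covariate, at -0.12 (adjusted p = 0.0605), and in edgeR, at -0.12 (adjusted p = 0.0546). The interaction of genotype and fluoxetine was -0.14, with a 95% interval of -0.25 to -0.03 and an adjusted p of 0.1362.

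With Zmat3 and Bax, 2 of the 10 genes passed between Het and WT mice under fluoxetine, against 7.33% of all genes. Under lithium limma called 0 of the 10, against 0.0393% of all genes. An unadjusted p under 0.05 was found for 0 of the 10 and for 1151 of all 17807 genes. Under vehicle limma called 0 of the 10, against 0.0562% of all genes. There 3 had an unadjusted p under 0.05, namely Cdkn1a, Trp53inp1 and Zmat3, against 1388 of all 17807 genes. Within a sex limma called 1 gene in males given fluoxetine, Zmat3, against 1.18% of all genes. It called 0 of the 10 in females given fluoxetine (0.0393% of all genes, 3 of the 10 at an unadjusted p under 0.05), in males given lithium (0.00562%, 0 of the 10) and in females given lithium (0.0168%, 1 of the 10). In males given vehicle it called 0 (0.0168%, 2 of the 10 unadjusted), and in females given vehicle 0 (0.0225%, 1 of the 10 unadjusted). Of all 17807 genes, 2127 had an unadjusted p under 0.05 in females given fluoxetine. This number was 562 in males and 870 in females given lithium, and 1463 in males and 1149 in females given vehicle. edgeR and DESeq2 called 0 of the 10 in each of the 7 comparisons in which limma called 0.

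Trp53 and its inhibitors did not pass between genotypes. Trp53 averaged 434 ± 40.5 in Het libraries and 454 ± 36.2 in WT libraries (SD, n = 30 each), with a log2 difference of -0.07, with a 95% interval of -0.13 to -0.01 and an adjusted p of 0.2815 in limma. For Mdm2 the difference was -0.01 with a 95% interval of -0.06 to 0.03, and for Mdm4 it was -0.05 (adjusted p = 0.3155). The remaining targets had -0.03 for Ccng1, -0.03 for Bax, 0.01 for Phlda3, 0.07 for Bbc3 and -0.05 for Trp53inp1, with adjusted p-values of 0.5636 to 0.9513. The median of the 10 differences was -0.03, and that of all genes was 0.00.

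**Figure D1:**
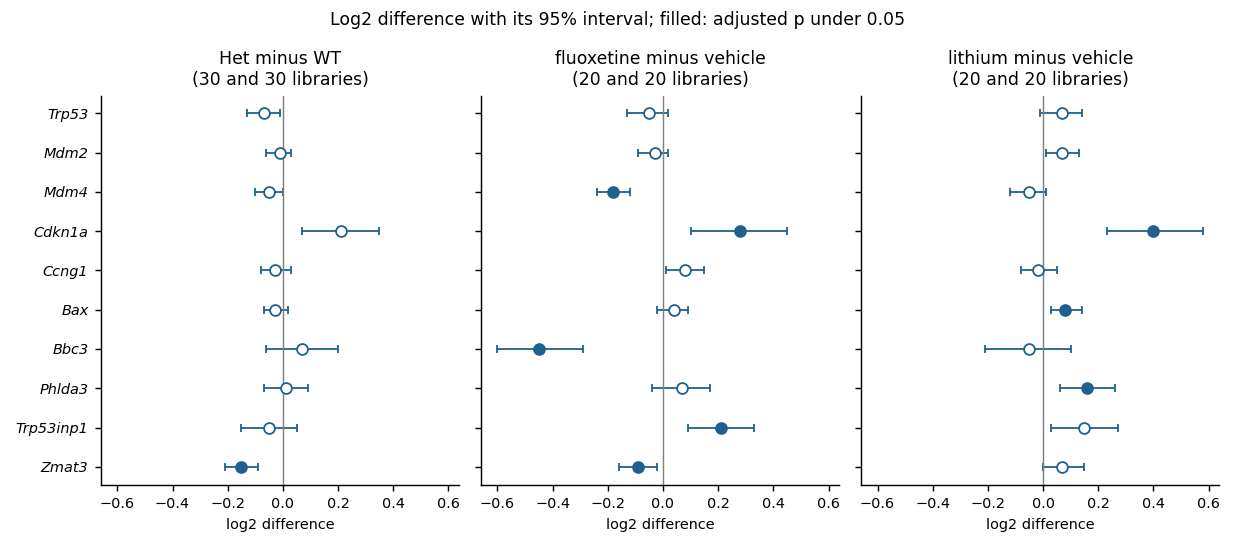
Log2 difference (x axis) of the 10 genes (y axis) for Het minus WT, fluoxetine minus vehicle and lithium minus vehicle over all other factors, with 95% intervals from limma and filled points where the adjusted p was under 0.05. Zmat3 is the only filled point for genotype, 5 points are filled for fluoxetine, from Bbc3 at -0.45 to Cdkn1a at 0.28, and Cdkn1a, Bax and Phlda3 are filled for lithium.

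Fluoxetine was compared with vehicle to see how the drug moved these genes. Over both genotypes and sexes Cdkn1a and Trp53inp1 rose and Mdm4, Bbc3 and Zmat3 fell. These 5 of 10 stand against 33.6% of all genes, 17.6% called higher and 16% called lower, so the share of called genes is not a result about the pathway. The median difference of the 10 genes was 0.00, as it was for all genes. Trp53 averaged 426 ± 35.3 under fluoxetine and 441 ± 32.5 under vehicle (SD, n = 20 each), a log2 difference of -0.05, with a 95% interval of -0.13 to 0.02 and an adjusted p of 0.2994 in limma. Mdm2 had -0.03 (adjusted p = 0.3698), Ccng1 0.08 (adjusted p = 0.0650), Bax 0.04 (adjusted p = 0.3213) and Phlda3 0.07 (adjusted p = 0.3292). The fluoxetine and lithium comparisons share their vehicle libraries.

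Mdm4, the inhibitor that holds p53 inactive, fell. Under fluoxetine, Mdm4 had 2460, 2644, 2746, 2348 and 2830 in Het males and 2647, 2386, 2945, 2628 and 2909 in Het females, against 2855, 3043, 3060, 2837 and 2565 in WT males and 2603, 2699, 2798, 2830 and 2849 in WT females. Under lithium, Mdm4 had 3037, 2972, 2892, 2958 and 2999 in Het males and 3076, 2666, 2815, 3058 and 3049 in Het females, against 3210, 3090, 3010, 2724 and 3222 in WT males and 2829, 2898, 3159, 2861 and 3091 in WT females. Under vehicle, Mdm4 had 3602, 2929, 2429, 3129 and 3103 in Het males and 3025, 3072, 3074, 3193 and 2970 in Het females, against 3000, 3022, 2984, 3071 and 3451 in WT males and 3077, 3202, 3143, 3166 and 3281 in WT females. All 20 of 20 fluoxetine libraries lay below the vehicle mean. In females of both genotypes the fluoxetine and vehicle values did not overlap, and in males of both they did. How many other genes did not overlap was not counted, and a difference between the sexes was not tested. In WT females limma did not call Mdm4. The log2 difference of fluoxetine from vehicle was -0.18, with a 95% interval of -0.24 to -0.12 and an adjusted p of 1.15e-05 in limma, and it passed in each of the 12 alternative analyses and in each of the 60 fits without 1 library. It was -0.20 (adjusted p = 0.000402) in Het mice and -0.16 (adjusted p = 0.0154) in WT mice, with an interaction of -0.04, with a 95% interval of -0.17 to 0.08 and an adjusted p of 0.7392. Within sexes Mdm4 passed in Het males, at -0.21 (adjusted p = 0.0106), and Het females, at -0.19 (adjusted p = 0.0341). In Het mice the value was -0.15 (adjusted p = 0.0800) without the 16 libraries that scored highest for olfactory bulb, and in WT mice it was -0.13 (adjusted p = 0.0769) with the olfactory bulb and myelin scores as covariates.

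Bbc3, which encodes Puma, a trigger of apoptosis in neurons, had the largest fall of the 10 genes. Under fluoxetine, Bbc3 had 106, 85.3, 186, 146 and 132 in Het males and 125, 139, 147, 144 and 160.3 in Het females, against 91.2, 122, 118, 154 and 122 in WT males and 98, 137, 140.3, 135 and 131 in WT females. Under lithium, Bbc3 had 205, 194, 187, 208 and 163 in Het males and 182, 124, 185, 137 and 196 in Het females, against 142, 162, 159, 136 and 233 in WT males and 174, 214, 174, 126 and 139.6 in WT females. Under vehicle, Bbc3 had 202, 162, 173, 162 and 159 in Het males and 188, 176, 177, 207 and 153 in Het females, against 154, 195, 215, 196 and 151 in WT males and 215, 192, 155, 174 and 139 in WT females. Fluoxetine and vehicle values overlapped, and 19 of 20 fluoxetine libraries lay below the vehicle mean. The log2 difference of fluoxetine from vehicle was -0.45, with a 95% interval of -0.60 to -0.29 and an adjusted p of 1.34e-05 in limma. It was -0.38 (adjusted p = 0.0062) in Het mice and -0.51 (adjusted p = 0.0014) in WT mice, with an interaction of 0.13, with a 95% interval of -0.18 to 0.45 and an adjusted p of 0.6580. Without the 16 libraries that scored highest for olfactory bulb the value in Het mice was -0.27 (adjusted p = 0.2359), and with the glucocorticoid score as a covariate it was -0.66 (adjusted p = 4.19e-05). The score of 20 immediate early genes, which report recent neuronal activity, averaged -0.51 ± 0.20 under fluoxetine and 0.26 ± 0.19 under vehicle (log2, SD, n = 20 each). Within groups Bbc3 and this score had r = 0.15 and rho = 0.17 (adjusted permutation p = 0.438 and 0.338, n = 60). With raw log2 values, which include the differences between groups, r was 0.64. The score's part in the fall was not tested further.

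Trp53inp1, which encodes a stress-induced protein that promotes p53 activity and autophagy, rose. Under fluoxetine, Trp53inp1 had 734, 622, 900.0, 795 and 803 in Het males and 729, 777, 936, 1028 and 727 in Het females, against 725, 669.6, 798, 744 and 843 in WT males and 630.5, 758, 732, 913 and 881 in WT females. Under lithium, Trp53inp1 had 719, 718, 684, 949.6 and 914 in Het males and 666, 606, 583, 774 and 888 in Het females, against 737, 848, 775, 777 and 905 in WT males and 641, 713, 885, 631 and 703 in WT females. Under vehicle, Trp53inp1 had 664, 589, 560.1, 662 and 584 in Het males and 811, 688, 585, 645 and 581 in Het females, against 717, 788, 683, 767 and 757 in WT males and 836, 898, 632, 565 and 619.7 in WT females. Fluoxetine and vehicle values overlapped, and 17 of 20 fluoxetine libraries lay above the vehicle mean. The log2 difference of fluoxetine from vehicle was 0.21, with a 95% interval of 0.09 to 0.33 and an adjusted p of 0.0053 in limma. It was 0.33 (adjusted p = 0.0020) in Het mice and 0.09 (adjusted p = 0.5698) in WT mice, and the interaction was 0.24 with an adjusted p of 0.2305, so a difference between genotypes was not shown. Glucocorticoid-responsive genes moved with it, with a score of 0.11 ± 0.21 under fluoxetine and -0.14 ± 0.18 under vehicle (log2, SD, n = 20 each). In Het mice alone the score was 0.16 ± 0.23 under fluoxetine and -0.20 ± 0.15 under vehicle (n = 10 each). With that score as a covariate the difference of Trp53inp1 was -0.01 (adjusted p = 0.8723).

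Cdkn1a rose under fluoxetine too. From the values listed above it averaged 1207 ± 307 under fluoxetine and 995 ± 220.1 under vehicle (SD, n = 20 each), with overlapping ranges and 16 of 20 fluoxetine libraries above the vehicle mean. The log2 difference was 0.28, with a 95% interval of 0.10 to 0.45 and an adjusted p of 0.0096 in limma. It was 0.29 (adjusted p = 0.0587) in Het mice and 0.26 (adjusted p = 0.1731) in WT mice, neither past the threshold in limma. DESeq2 called Cdkn1a in Het mice and not in WT mice. Over both genotypes the difference was 0.19 (adjusted p = 0.1760) with the glucocorticoid score as a covariate, and 0.36 (adjusted p = 4.27e-05) with the olfactory bulb and myelin scores. Zmat3 had -0.09 (adjusted p = 0.0423), with 11 of 20 fluoxetine libraries below the vehicle mean, a call kept in 38 of 60 fits without 1 library. The call was also lost without the 16 libraries that scored highest for olfactory bulb, at -0.08 (adjusted p = 0.1940), with only the groups compared, at -0.09 (adjusted p = 0.0560), and with the glucocorticoid score as a covariate, at -0.05 (adjusted p = 0.4606). In Het mice Zmat3 had -0.14 (adjusted p = 0.0242), a call lost without Het fluoxetine male replicate 3 or 5 or Het vehicle male replicate 5. It was also lost without the 16 libraries that scored highest for olfactory bulb, at -0.12 (adjusted p = 0.2511), with only the groups compared, at -0.14 (adjusted p = 0.0820), and with the glucocorticoid score, at -0.08 (adjusted p = 0.4049). In WT mice Zmat3 had -0.04 (adjusted p = 0.6791). With the glucocorticoid score as a covariate Mdm2, at -0.10 (adjusted p = 0.0141), and Ccng1, at 0.12 (adjusted p = 0.0306), passed over both genotypes.

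Within genotypes, 4 of the 10 genes passed under fluoxetine in Het mice (Mdm4, Bbc3, Trp53inp1 and Zmat3), against 32.9% of all genes, and 2 of 10 passed in WT mice (Mdm4 and Bbc3), against 8.2%. Within sexes 3 of 10 passed in Het males (22.7% of all genes), namely Mdm4, Bbc3 and Trp53inp1, and 2 of 10 in Het females (15.1%), namely Mdm4 and Trp53inp1. In WT males 1 of 10 passed (1.34%), Bbc3 at -0.59 (adjusted p = 0.0383). In Het males the call of Mdm4 was kept in 10 of 12 alternative analyses and 59 of 60 fits without 1 library, that of Bbc3 in 6 of 12 alternative analyses and 54 of 60 fits without 1 library and that of Trp53inp1 in 6 of 12 alternative analyses and 54 of 60 fits without 1 library. In Het females that of Mdm4 was kept in 9 of 12 alternative analyses and 55 of 60 fits without 1 library and that of Trp53inp1 in 5 of 12 alternative analyses and 52 of 60 fits without 1 library, and in WT males that of Bbc3 in 9 of 12 alternative analyses and 53 of 60 fits without 1 library. In WT females limma called 0 of the 10, against 2.5% of all genes, edgeR called 0 and DESeq2 called 1, Mdm4. There 3 of the 10 had an unadjusted p under 0.05, against 3020 of all 17807 genes. The interaction of genotype and fluoxetine was called for 0 of the 10 in limma, edgeR and DESeq2, against 1.7% of all genes in limma. For it 2 had an unadjusted p under 0.05, Bax and Trp53inp1, against 3755 of all 17807 genes.

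**Figure D2:**
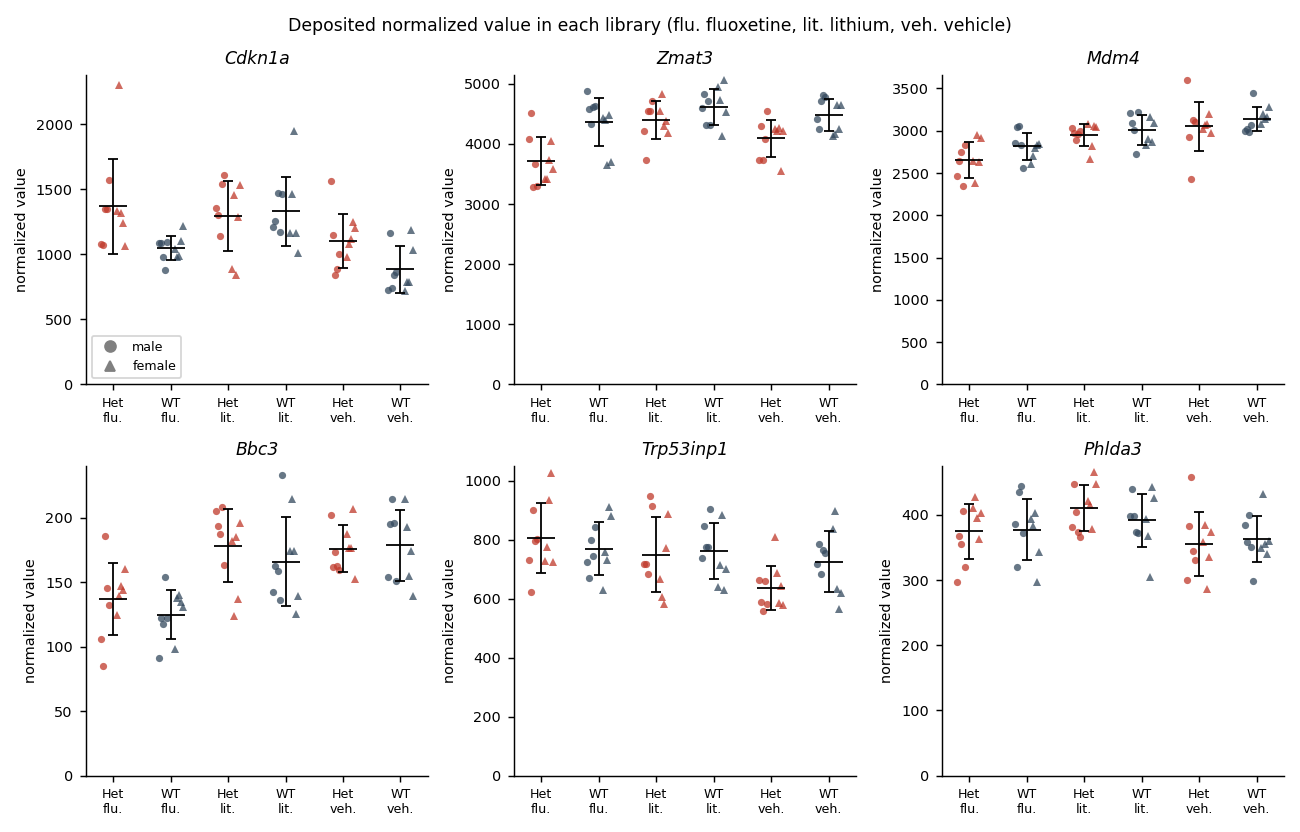
Deposited normalized value (y axis, from 0) of 6 genes in each library by genotype and treatment (x axis), circles for males and triangles for females, with the mean and SD of 10 libraries in black. Bbc3 in Het mice lies at 85.3 to 186 under fluoxetine and 153 to 207 under vehicle, and Cdkn1a in WT mice lies at 1013 to 1946 under lithium and 719.9 to 1185 under vehicle.

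Lithium was compared with vehicle in the same way. Cdkn1a, Bax and Phlda3 rose over both genotypes, and none of the 10 genes was called lower. These 3 of 10 stand against 19.1% of all genes, 10.3% called higher and 8.79% called lower. The median difference of the 10 genes was 0.07, and that of all genes was 0.00. Cdkn1a averaged 1314 ± 261 under lithium and 995 ± 220.1 under vehicle (SD, n = 20 each), with 18 of 20 lithium libraries above the vehicle mean. The log2 difference was 0.40, with a 95% interval of 0.23 to 0.58 and an adjusted p of 0.000581 in limma, and it passed in each of the 12 alternative analyses and in each of the 60 fits without 1 library.

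Cdkn1a passed in WT mice on its own. WT libraries had 1013 at the lowest, 1232 at the median and 1946 at the highest under lithium, against 719.9 at the lowest, 813 at the median and 1185 at the highest under vehicle. All 10 lithium libraries lay above the vehicle mean, and the ranges overlapped. The log2 difference was 0.59, with a 95% interval of 0.35 to 0.83 and an adjusted p of 0.0038 in limma. Het libraries had 841 at the lowest, 1329 at the median and 1610 at the highest under lithium, against 838 at the lowest, 1099 at the median and 1562 at the highest under vehicle, a log2 difference of 0.22 (adjusted p = 0.2559). The interaction of genotype and lithium was -0.37, with a 95% interval of -0.72 to -0.03, an unadjusted p of 0.0329 and an adjusted p of 0.9896 in limma, so a difference between genotypes was not shown. For that interaction limma called no gene of the table (0%), and 615 had an unadjusted p under 0.05. Among the 10 genes limma, edgeR and DESeq2 called 0, and Cdkn1a alone had an unadjusted p under 0.05.

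Phlda3, which competes with Akt at the membrane, moved less. Under lithium, Phlda3 had 382, 448, 405, 374 and 366 in Het males and 421, 415, 378, 466 and 448 in Het females, against 398, 440.2, 398, 374 and 372 in WT males and 394, 367, 305, 442 and 426 in WT females. Under fluoxetine, Phlda3 had 297, 368, 356, 406 and 320.0 in Het males and 411, 428, 395, 363 and 403 in Het females, against 385, 321, 435, 444 and 372 in WT males and 393, 383, 402, 298 and 342 in WT females. Under vehicle, Phlda3 had 301, 383, 459, 345 and 331 in Het males and 358, 385, 286, 335 and 373 in Het females, against 384, 358, 400.4, 351 and 299 in WT males and 349.6, 431, 356, 339.5 and 360.0 in WT females. Lithium and vehicle values overlapped, and 19 of 20 lithium libraries lay above the vehicle mean. The log2 difference of lithium from vehicle was 0.16, with a 95% interval of 0.06 to 0.26 and an adjusted p of 0.0193 in limma, and 0.18 (adjusted p = 0.0549) without the 16 libraries that scored highest for olfactory bulb. In Het mice it was 0.21 (adjusted p = 0.0483), a call kept in 28 of 60 fits without 1 library. That call was lost with the olfactory bulb and myelin scores as covariates, at 0.15 (adjusted p = 0.0748), and without the 16 libraries that scored highest for olfactory bulb, at 0.21 (adjusted p = 0.1981). It was also lost with the glucocorticoid score, at 0.20 (adjusted p = 0.1115), with only the groups compared, at 0.21 (adjusted p = 0.0774), in edgeR, at 0.21 (adjusted p = 0.0551), and with the replicate block. In WT mice the difference was 0.11 (adjusted p = 0.4497).

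Bax, whose fluoxetine values are given above, rose slightly under lithium. Under lithium, Bax had 829, 822, 821, 828 and 806 in Het males and 792, 818, 797, 736 and 819 in Het females, against 815, 754, 820.1, 856 and 779.8 in WT males and 786, 789.9, 818, 781 and 803 in WT females. Under vehicle, Bax had 741, 833, 806, 707 and 749 in Het males and 768, 738, 791, 815 and 701 in Het females, against 679.6, 754, 732, 767 and 791 in WT males and 784, 760.5, 759, 775 and 736 in WT females. The ranges overlapped, and 18 of 20 lithium libraries lay above the vehicle mean. The log2 difference was 0.08, with a 95% interval of 0.03 to 0.14 and an adjusted p of 0.0298 in limma, and 0.06 (adjusted p = 0.1658) without the 16 libraries that scored highest for olfactory bulb. The call was also lost without Het vehicle female replicate 5, Het vehicle male replicate 4 or WT vehicle male replicate 1. Of the genes that did not pass, Trp53 had 0.07 (adjusted p = 0.1946), Mdm2 0.07 (adjusted p = 0.0843), Trp53inp1 0.15 (adjusted p = 0.0737) and Zmat3 0.07 (adjusted p = 0.1449). Mdm4 had -0.05 (adjusted p = 0.2381), Bbc3 -0.05 (adjusted p = 0.6739) and Ccng1 -0.02 (adjusted p = 0.8010).

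Within genotypes 1 of the 10 genes passed under lithium in Het mice, Phlda3, against 9.14% of all genes, and 1 of 10 in WT mice, Cdkn1a, against 2.97%. Within sexes limma called 0 of the 10 in Het males (2% of all genes, 3 of the 10 at an unadjusted p under 0.05), Het females (0.629%, 1 of the 10), WT males (0.0786%, 2 of the 10) and WT females (0.118%, 1 of the 10). Of all 17807 genes, 3487 had an unadjusted p under 0.05 in Het males, 2462 in Het females, 1619 in WT males and 2010 in WT females. edgeR called 0 in these 4 comparisons, and DESeq2 called 1 in Het males, Trp53inp1, and 0 in the other 3. For females against males over all groups limma, edgeR and DESeq2 called 0 of the 10, against 0.14% of all genes in limma. In that comparison 0 had an unadjusted p under 0.05, against 646 of all 17807 genes.

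Trp53, Mdm2 and Ccng1 passed in none of these comparisons. Trp53 had 358 at the lowest, 433 at the median and 481 at the highest under fluoxetine, 374 at the lowest, 464 at the median and 552 at the highest under lithium and 363 at the lowest, 439.6 at the median and 497 at the highest under vehicle. Mdm2 had 1149 at the lowest, 1310 at the median and 1442 at the highest under fluoxetine, 1224 at the lowest, 1417 at the median and 1599 at the highest under lithium and 1247 at the lowest, 1347 at the median and 1483 at the highest under vehicle. The ranges of the 3 treatments overlapped for both genes. Ccng1 had 1705 at the lowest, 1907 at the median and 2435 at the highest under fluoxetine, 1591 at the lowest, 1814 at the median and 1965 at the highest under lithium and 1582 at the lowest, 1838 at the median and 2060 at the highest under vehicle.

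**Figure D3:**
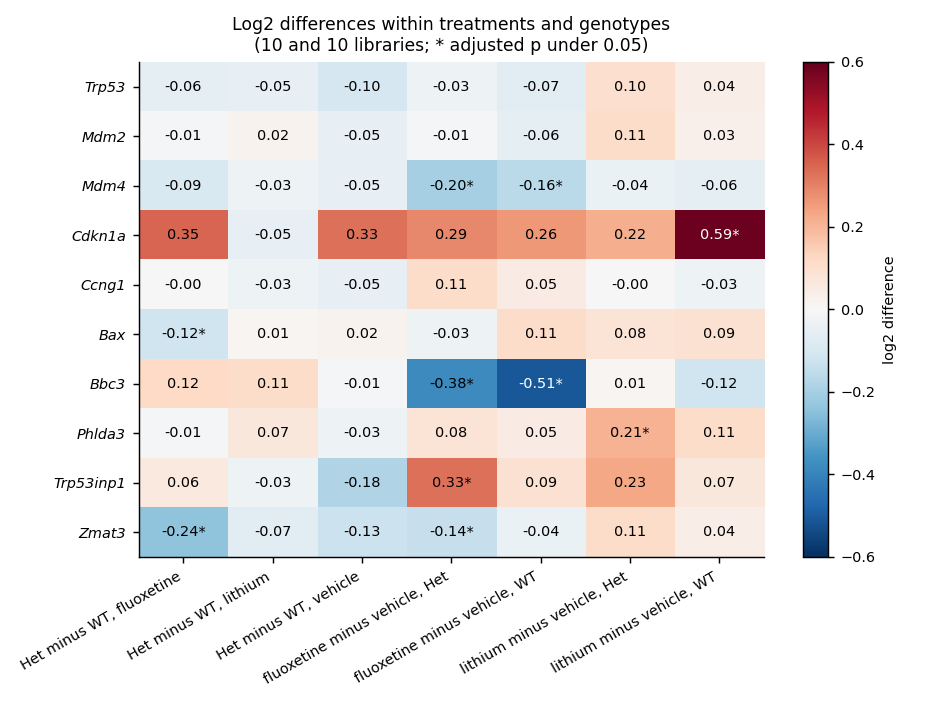
Log2 differences of the 10 genes (rows) for Het minus WT under each treatment and each drug minus vehicle in each genotype (columns), each from 10 and 10 libraries, red for higher and blue for lower, with an asterisk for an adjusted p under 0.05. The extremes are Cdkn1a under lithium in WT mice (0.59) and Bbc3 under fluoxetine in WT mice (-0.51).

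The wider pathway was read from 21 tested regulators of p53 and 35 other p53 targets. Under fluoxetine 9 of 21 regulators passed, 3 higher and 6 lower, with a median log2 difference of -0.07, against 33.6% called and a median of 0.00 over all genes. The 4 with the smallest p were Ep300, an acetyltransferase that coactivates p53, at -0.25 (adjusted p = 8.07e-06), Ppp1r13b, the p53-binding protein ASPP1, at 0.16 (adjusted p = 2.52e-05), Usp28, a deubiquitinase, at -0.20 (adjusted p = 6.1e-05), and Sirt1, a deacetylase of p53, at -0.18 (adjusted p = 0.00013). Of the other targets 16 of 35 passed, 10 higher and 6 lower, with a median of -0.02. Plk3, a stress kinase, was at -0.53 (adjusted p = 6.98e-10) and Gadd45a, a growth arrest and DNA repair protein, at -0.64 (adjusted p = 2.43e-09). Sesn1, a sestrin, was at 0.20 (adjusted p = 1.16e-05) and Plk2, a kinase that acts at synapses, at 0.18 (adjusted p = 0.000106). All adjusted p-values of these lists are from limma over all genes.

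In Het mice fluoxetine moved 8 of 21 regulators and 12 of 35 other targets, against 32.9% of all genes. The regulators with the smallest p there were Ppp1r13b at 0.21 (adjusted p = 5.46e-05), Usp28 at -0.27 (adjusted p = 0.000136), Rchy1, a ubiquitin ligase of p53, at 0.20 (adjusted p = 0.000889) and Sirt1 at -0.19 (adjusted p = 0.0041), and the targets were Gadd45a at -0.67 (adjusted p = 3.4e-06), Sesn1 at 0.30 (adjusted p = 8.83e-06), Plk3 at -0.50 (adjusted p = 1.03e-05) and Plk2 at 0.28 (adjusted p = 3.48e-05). In WT mice it moved 5 of 21 regulators and 4 of 35 other targets, against 8.2% of all genes. These included Ep300 at -0.30 (adjusted p = 0.000721), Hipk2, a kinase of p53, at -0.42 (adjusted p = 0.0217), Sirt1 at -0.17 (adjusted p = 0.0269) and Ppp1r13l, the p53 inhibitor iASPP, at -0.34 (adjusted p = 0.0351), with Plk3 at -0.57 (adjusted p = 3.83e-06), Gadd45a at -0.61 (adjusted p = 6.25e-05), Polk, a translesion polymerase, at -0.19 (adjusted p = 0.0112) and Perp, a membrane protein of apoptosis, at 0.30 (adjusted p = 0.0419) among the targets. Limma called no gene of either list for the interaction of genotype and drug, so a difference between genotypes was not shown.

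Under lithium 6 of 21 regulators passed, 1 higher and 5 lower, and 5 of 35 other targets passed, all higher, against 19.1% of all genes. The median differences were -0.02 and 0.06. Among the targets Sesn2, a sestrin, was at 0.34 (adjusted p = 2.22e-06), Tigar, a phosphatase that slows glycolysis, at 0.14 (adjusted p = 0.0031), Bid, a BH3-only protein, at 0.25 (adjusted p = 0.0062) and Ei24, a membrane protein of the endoplasmic reticulum, at 0.10 (adjusted p = 0.0161). Among the regulators Atr, a kinase of the DNA damage response, was at -0.21 (adjusted p = 8.21e-05), Usp28 at -0.18 (adjusted p = 0.0010), Sirt1 at -0.14 (adjusted p = 0.0046) and Ppp1r13b at 0.11 (adjusted p = 0.0049). In Het mice, where 9.14% of all genes were called, 4 of 21 regulators passed, Atr at -0.25 (adjusted p = 0.0018), Sirt1 at -0.23 (adjusted p = 0.0035), Ppp1r13b at 0.15 (adjusted p = 0.0161) and Usp28 at -0.20 (adjusted p = 0.0196). The 3 of 35 other targets were Sesn2 at 0.45 (adjusted p = 5.12e-05), Tigar at 0.19 (adjusted p = 0.0110) and Plk2 at 0.18 (adjusted p = 0.0250). In WT mice, where 2.97% of all genes were called, 1 of 35 other targets passed, Sesn2 at 0.24 (adjusted p = 0.0489), and 0 of 21 regulators.

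Between Het and WT mice over all treatments 0 of 21 regulators and 1 of 35 other targets passed, Ddb2, which recognises UV damage, at 0.18 (adjusted p = 0.0452), against 1.54% of all genes. Under fluoxetine 1 of 21 regulators and 2 of 35 other targets passed, against 7.33% of all genes. Usp7, a deubiquitinase of p53 and Mdm2, was at 0.09 (adjusted p = 0.0283), Rrm2b, a ribonucleotide reductase subunit, at 0.13 (adjusted p = 0.0202) and Sesn2 at 0.22 (adjusted p = 0.0470).

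**Figure D4:**
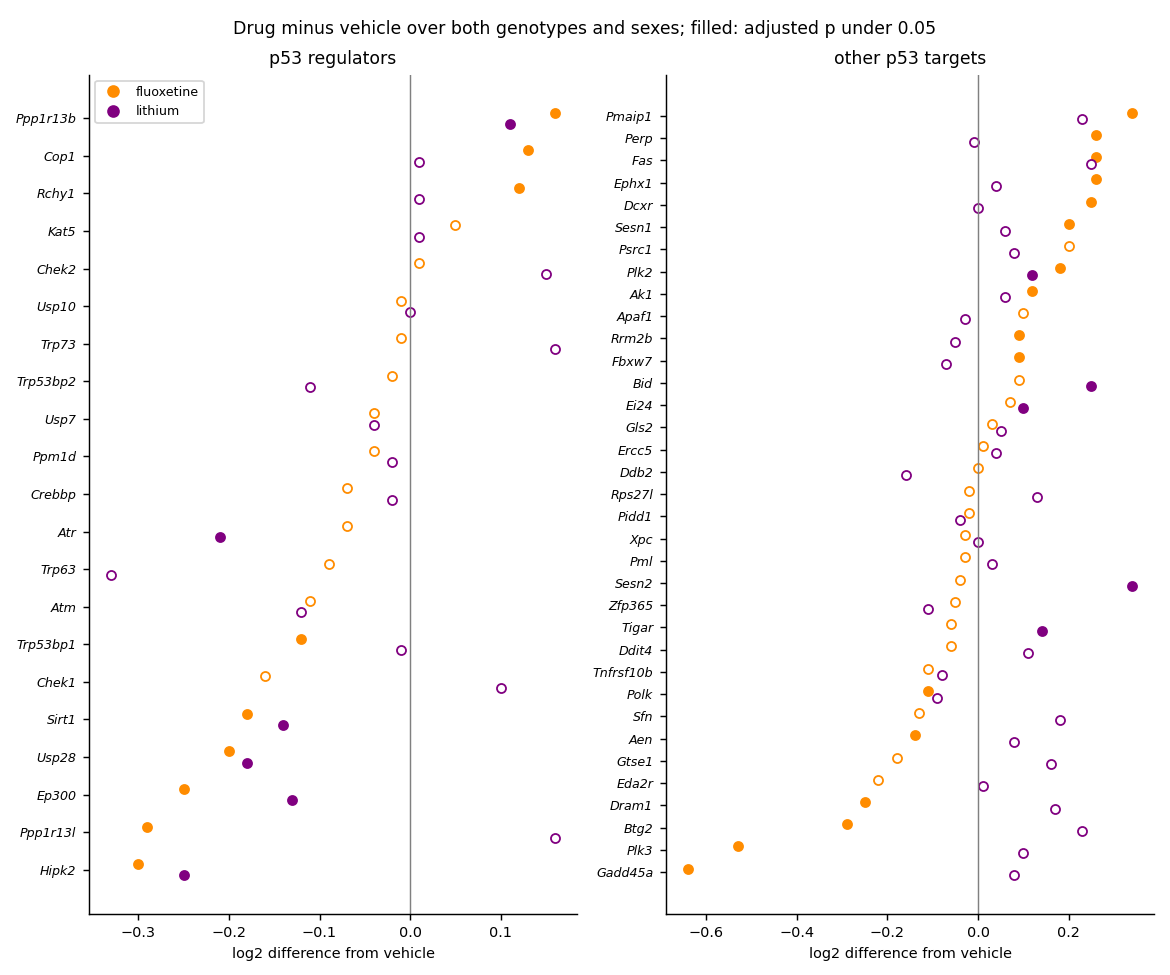
Log2 difference (x axis) of fluoxetine from vehicle in orange and of lithium from vehicle in purple for 21 regulators of p53 and 35 other p53 targets (rows, ordered by the fluoxetine value), filled where the adjusted p was under 0.05. Gadd45a and Plk3 are the lowest filled targets under fluoxetine, and Sesn2 is the highest filled target under lithium.

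The 10 genes were then followed from library to library, as deviations from the mean of each group of 5, against the scores of 7 gene lists. A score is the mean log2 value of the list's genes, centred over libraries. Of 70 relations, 12 passed on both Pearson's r and Spearman's rho (two-sided permutation tests of 100000 resamples, adjusted over the 70). The same count was not made for other genes, so 12 of 70 is not a result about the pathway. The permutations treat the 60 deviations as independent, although centring on 12 group means leaves 48 degrees of freedom. Their p-values are therefore somewhat too small, also for the 45 pairs below, and relations close to the threshold are the least certain. Trp53inp1 followed the glucocorticoid-responsive genes, with r = 0.85 and rho = 0.84 (adjusted permutation p = 1.4e-04 and 2.3e-04, n = 60) and r = 0.83 without the 2 libraries farthest from the median score. The unadjusted p of 1.0e-05 behind both is the smallest these permutations can give. The same score gave r = 0.53 and rho = 0.49 with Mdm2 (adjusted permutation p = 1.4e-04 and 9.3e-04) and r = 0.56 and rho = 0.49 with Bbc3 (adjusted permutation p = 1.4e-04 and 9.3e-04). Without 2 libraries r was 0.47 for Mdm2 and 0.49 for Bbc3. With raw log2 values r was 0.13 for Bbc3 and the score, and 0.40 for Mdm2.

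Phlda3 followed the oligodendrocyte and myelin markers, with r = 0.69 and rho = 0.75 (adjusted permutation p = 1.4e-04 and 2.3e-04, n = 60), and Bax ran against them, with r = -0.42 and rho = -0.45 (adjusted permutation p = 0.00525 and 0.0029). Without 2 libraries these were r = 0.72 and -0.40. Cdkn1a followed the olfactory bulb and neuroblast markers, with r = 0.49 and rho = 0.43 (adjusted permutation p = 5.0e-04 and 0.00476), and Zmat3 ran against them, with r = -0.35 and rho = -0.35 (adjusted permutation p = 0.0331 and 0.0386). Without 2 libraries these were r = 0.42 and -0.27. Striatal markers gave r = 0.44 and rho = 0.50 with Phlda3 (adjusted permutation p = 0.0042 and 9.3e-04) and r = -0.42 and rho = -0.45 with Bax (adjusted permutation p = 0.00525 and 0.00381). The immediate early genes gave r = 0.42 and rho = 0.37 with Mdm2 (adjusted permutation p = 0.00624 and 0.0213), and r = 0.31 without 2 libraries. The 35 other p53 targets, which share Btg2 with the immediate early genes and Ddit4 with the glucocorticoid-responsive genes, gave r = 0.63 and rho = 0.63 with Trp53inp1 (adjusted permutation p = 1.4e-04 and 2.3e-04) and r = 0.52 and rho = 0.44 with Bbc3 (adjusted permutation p = 4.7e-04 and 0.00381).

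Among the 45 pairs of the 10 genes, 12 passed in the same test, adjusted over the 45. This family was added after the data were seen. Pairs of other genes were not counted, so 12 of 45 is not a result about the pathway. Trp53 and Mdm2, the ligase it induces, had r = 0.66 and rho = 0.65 (adjusted permutation p = 1.5e-04 and 2.2e-04), with r = 0.62 without 2 libraries. Ccng1 and Zmat3 had r = 0.63 and rho = 0.58 (adjusted permutation p = 1.5e-04 and 2.2e-04), and Bbc3 ran against both, with r = -0.53 and rho = -0.47 (adjusted permutation p = 5.6e-04 and 0.00225) for Ccng1 and r = -0.52 and rho = -0.49 (adjusted permutation p = 1.5e-04 and 9.0e-04) for Zmat3. Cdkn1a followed Mdm2, with r = 0.40 and rho = 0.43 (adjusted permutation p = 0.00775 and 0.00585), and Trp53, with r = 0.39 and rho = 0.36 (adjusted permutation p = 0.00855 and 0.0241). Trp53inp1 had r = 0.43 and rho = 0.43 (adjusted permutation p = 0.00457 and 0.00585) with Mdm2, r = 0.43 and rho = 0.41 (adjusted permutation p = 0.00457 and 0.00799) with Bbc3 and r = 0.39 and rho = 0.38 (adjusted permutation p = 0.0106 and 0.0167) with Trp53. Trp53 also followed Mdm4, with r = 0.33 and rho = 0.42 (adjusted permutation p = 0.0324 and 0.00688). It ran against Ccng1, with r = -0.36 and rho = -0.33 (adjusted permutation p = 0.0185 and 0.0334) and r = -0.23 without 2 libraries, and against Zmat3, with r = -0.34 and rho = -0.34 (adjusted permutation p = 0.0285 and 0.0322). Raw log2 values include the differences between groups, and with them r was 0.10 for Trp53 and Zmat3, -0.10 for Bbc3 and Zmat3, 0.11 for Bbc3 and Trp53inp1 and 0.29 for Ccng1 and Zmat3. For Trp53 it was 0.25 with Cdkn1a and 0.27 with Trp53inp1, and the other 6 pairs that passed had the same sign as from deviations.

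**Figure D5:**
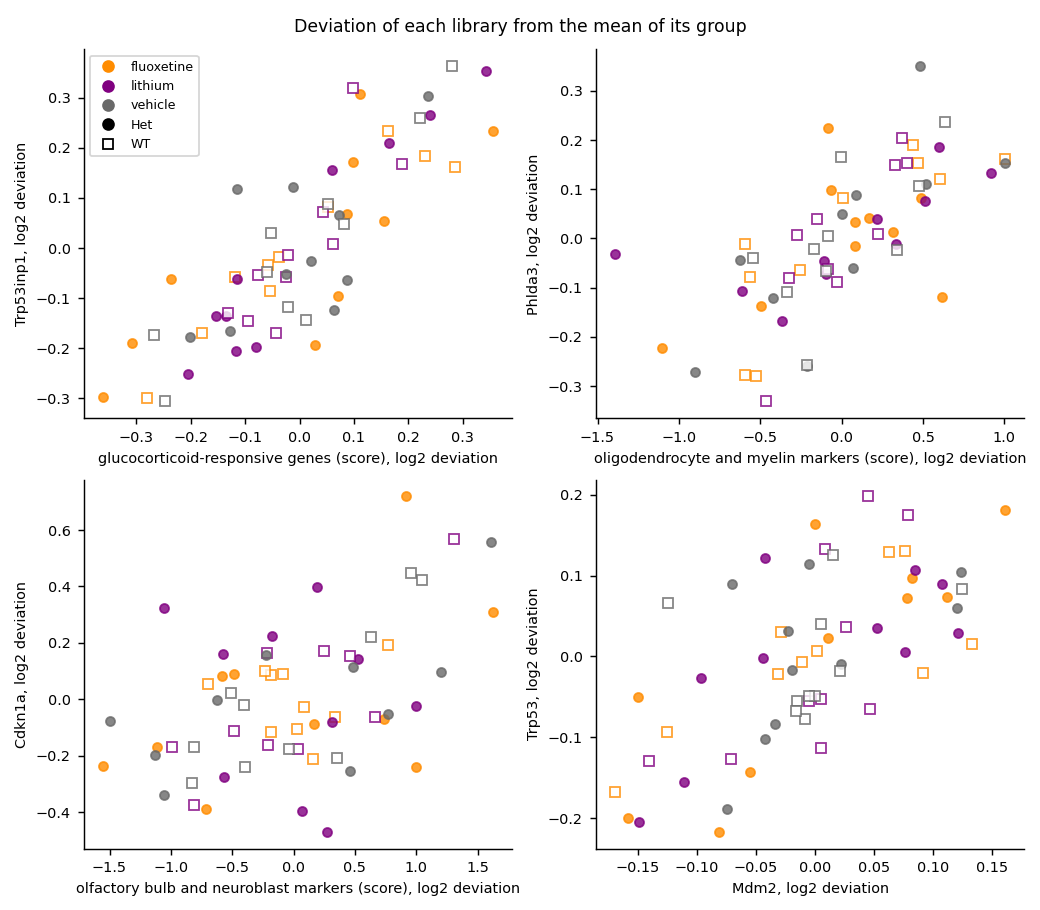
Log2 deviation of each of the 60 libraries from the mean of its group of 5, for Trp53inp1 against the glucocorticoid score, Phlda3 against the myelin score, Cdkn1a against the olfactory bulb score and Trp53 against Mdm2, coloured by treatment, with filled circles for Het and open squares for WT. The points follow a rising line most closely for Trp53inp1 (r = 0.85) and least closely for Cdkn1a (r = 0.49).

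The genes most like each of the 10 are named by Pearson's r of log2 values over the 60 libraries, among 13695 genes compared, as a description that includes the differences between groups. For Trp53 they were Mdm2 (0.69), Nckap5l (0.59) and AC158975.2 (0.57), for Mdm2 Jade2 (0.73), Kansl3 (0.71) and Cnnm4 (0.71) and for Mdm4 Ubn2 (0.83), Clk1 (0.82) and Tnrc6a (0.81). Cdkn1a was most like Cbln4 (0.76), Selenom (0.69) and Pim1 (0.67), and Ccng1 most like Rgs7bp (0.71) and Xk (0.70). Of the apoptosis genes, Bax was most like Cox6c (0.76), Rpl29 (0.76) and Gm49749 (0.74) and Bbc3 most like Klhl21 (0.75), Arid5a (0.74) and Nab2 (0.73). Phlda3 was most like Nxph3 (0.77), Pcp4 (0.75) and 2810468N07Rik (0.73), Trp53inp1 most like Pnpla2 (0.83), Arrdc2 (0.82) and Selenop (0.81) and Zmat3 most like Adgrl1 (0.80), Dusp3 (0.75) and Dbpht2 (0.73).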

How the data were processed

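RNA-seq libraries of prefrontal cortex from 60 mice, 5 in each of 12 groups of genotype, treatment and sex, were read from 1 deposited table, and samples were grouped by their titles. Its unit is a signal that the authors deposited, reads per gene divided by 1 size factor per library. Salmon 0.11.2, DESeq2 1.19.11, R 3.6.0 and build GRCm38 are named per the submitters' processing notes, and the sources used here give no annotation, filter or strand setting. Whole reads were recovered for 100% of values (within 0.001), taking the smallest nonzero value of a library as 1 read. This gave 24052509 to 31647416 reads per library over the genes of the table.

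Genes were named from the GRCm38 annotation. The log2 of the value plus 1 was fitted with limma-trend (limma 3.58.1, R 4.3.3) as 12 group means with 48 residual degrees of freedom, over the 17807 genes with at least 10 in at least 5 libraries, leaving out 281. p-values were adjusted by Benjamini-Hochberg over all genes of a contrast, and 27 contrasts were made. Alternatives were pseudocounts of 0.5 and 10, no filter, quantile normalization, TMM rescaling, edgeR 4.0.16 and DESeq2 1.42.0 on the recovered reads, only the groups compared, a replicate block, leaving out each library, leaving out the 16 libraries that scored highest for olfactory bulb, and covariates of tissue and glucocorticoid scores. On the recovered reads edgeR called 279 genes between Het and WT mice over all treatments (limma 274), 5926 for fluoxetine (limma 5986) and 3492 for lithium (limma 3401). The fit was tested on simulated data. The simulated reads had the same dispersion, the spread beyond counting noise, for all genes and no variation in tissue content. That test therefore does not bear on the calls given here.

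The 10 genes and all lists were chosen with earlier results of these data known. All 10 genes are named, with every library's value for those a contrast called. Of the regulators and other targets, in the comparisons over both sexes, every called gene is named, or the 4 with the smallest p. Cdkn2a, 1 of 22 listed regulators, had no row. The 3 genes most like each of the 10 were taken from genes with a mean of at least 50, and 1 of them is not reported here.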

Additional observations from a re-analysis of the deposited data

Results flagged for a closer look

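In 7 of the 120 groups of 5 libraries of the 10 genes, 1 library stood apart from the other 4 by Dixon's test, and chance flags about 1 in 20 groups. Cdkn1a was 2303 in Het fluoxetine female replicate 2, against 1066 to 1334 in the other 4. Mdm4 was 3451 in WT vehicle male replicate 5, against 2984 to 3071. Ccng1 was 1759 in Het vehicle male replicate 3, against 1852 to 1872. Bbc3 was 98.0 in WT fluoxetine female replicate 1, against 130.9 to 140.3, and 232.7 in WT lithium male replicate 5, against 135.8 to 162.3. Phlda3 was 431.3 in WT vehicle female replicate 2, against 339.5 to 360.0. Zmat3 was 3550 in Het vehicle female replicate 4, against 4213 to 4272.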

How the results depend on the processing

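Of 324 counts of the 10 genes called under 12 alternatives, 292 stayed within 1.5 times the count reported and 32 moved. The 16 libraries that scored highest for olfactory bulb included 3 Het females and 2 Het males given fluoxetine but 0 WT females and 0 WT males given it. Without these 16, which also leaves fewer samples, the count was 0 in place of 2 for Het against WT mice under fluoxetine and 1 in place of 3 for lithium. It was 1 in place of 4 for fluoxetine in Het mice, 0 in place of 3 in Het males, 0 in place of 2 in Het females and 0 in place of 1 in WT males. For lithium it was 0 in place of 1 in Het mice and 1 in place of 0 in Het females and in WT males. With only the groups compared, which leaves fewer samples to estimate the spread, it was 0 for Het against WT mice under fluoxetine and in males alone, 0 for fluoxetine in Het males, Het females and WT males, 1 in WT females, and 0 for lithium in Het mice. With the olfactory bulb and myelin scores as covariates it was 1 for Het against WT mice under fluoxetine, 1 for fluoxetine in Het females, 0 in WT males, and 1 for lithium in Het males and in WT males. With the glucocorticoid score it was 1 for Het against WT mice under fluoxetine, 1 for fluoxetine in Het females and in WT females, and 0 for lithium in Het mice. edgeR gave 1 for fluoxetine in Het mice of each sex and 0 for lithium in Het mice, TMM rescaling gave 1 for fluoxetine in Het females, and DESeq2 gave 1 for fluoxetine in WT females and for lithium in Het males. Where no reason is given, the cause was not tested.

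With the replicate block the count was 0 in place of 1 for lithium in Het mice, where Phlda3 had 0.21 with an adjusted p of 0.0517 in limma, and it changed no other call. Over 330 pairs of libraries with the same number the median correlation was 0.0011, against -0.0018 over 1320 pairs with other numbers. Same-number correlations ran from -0.2759 to 0.2948, and 59 were above 0.1. Pairs within and between treatments were pooled, so a pairing by number within a treatment was not tested.

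Leaving out 1 library gave counts of 1 to 3 for Het against WT mice under fluoxetine and 0 to 1 in males. For fluoxetine they were 1 to 3 in Het males, 0 to 2 in Het females, 0 to 1 in WT males and 0 to 1 in WT females. For lithium they were 2 to 5 over both genotypes, beyond 1.5 times only without Het lithium female replicate 3, and 0 to 3 in Het mice.

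Of 828 log2 differences under the 12 alternatives, 749 kept their side of the threshold, 52 lost it, 22 gained it and 5 reversed. All 5 were Trp53inp1 with the glucocorticoid score as a covariate, at -0.01 for fluoxetine, -0.0013 in Het mice and -0.04 in Het males, and at -0.01 for lithium and -0.0039 in Het mice. The cause was not tested.

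Over all genes of the table, the share called moved as well. Without the 16 libraries that scored highest for olfactory bulb limma called 136 genes for Het against WT mice under fluoxetine (1305 as reported), 3825 for fluoxetine (5986), 3152 in Het mice (5853) and 770 in WT mice (1461), 2031 for lithium (3401), 577 in Het mice (1627) and 179 in WT mice (529), and 3 for the interaction of genotype and fluoxetine (303). With only the groups compared it called 112 for Het against WT mice under fluoxetine, 1059 for lithium in Het mice, 1285 in WT mice and 43 for that interaction. With the glucocorticoid score it called 460 for Het against WT mice (274), 3195 for fluoxetine, 2641 in Het mice, 1038 for lithium in Het mice, 1048 in WT mice and 46 for the interaction. With the olfactory bulb and myelin scores it called 885 for fluoxetine in WT mice, 917 for lithium in WT mice and 70 for the interaction, for which DESeq2 called 714. Over the 12 alternatives the count for Het against WT mice was 5 to 19 (10 as reported) under vehicle and 4 to 11 (7 as reported) under lithium. Within sexes, for fluoxetine it was 293 to 4132 (4037 as reported) in Het males, 874 to 2962 (2691 as reported) in Het females and 87 to 643 (446 as reported) in WT females. For lithium it was 4 to 756 (356 as reported) in Het males, 0 to 942 (112 as reported) in Het females, 13 to 29 (14 as reported) in WT males and 2 to 130 (21 as reported) in WT females. For Het against WT mice it was 1 to 483 (211 as reported) in males and 0 to 25 (7 as reported) in females given fluoxetine, 0 to 7 (3 as reported) in males and 1 to 28 (4 as reported) in females given vehicle, and 1 to 4 (1 as reported) in males given lithium.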
